A study of Mus musculus with 598 samples.

Results

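Retinoic acid is made from vitamin A inside embryonic cells, acts through nuclear receptors and is broken down again. Described here are 9 genes that carry these steps, chosen by name: Stra6, Rdh10, Dhrs3, Aldh1a2, Crabp1, Crabp2, Cyp26a1, Rarb and Rarg. All 9 were found among the 40912 genes of the deposited count table. The cells were single mouse cells that carry GFP from Mesp1, a marker of nascent mesoderm, taken from gastrulating embryos, and each library held 1 cell. Of the 598 cells, 28.8% were wild type at embryonic stage E6.75, 14.2% (85 cells) were knockout at E6.75 and the other 57.02% were wild type at E7.25. The labels give GFP positivity for all 3 groups, and they name neither the knocked-out gene, the strain nor the embryo, litter or pool of any cell. Each group therefore counted as 1 sample, no test was run, and the intervals below cover counting error only. In the cells labelled knockout, Mesp1 was at 7.40 CPM (reads of a gene per 1000000 reads on genes), against 406 CPM in wild-type cells of the same library set.

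As background, STRA6 is the membrane receptor that takes up retinol from its carrier in blood. RDH10 oxidises retinol to retinaldehyde, and DHRS3 reduces retinaldehyde back to retinol. ALDH1A2 then makes retinoic acid in a step that is not reversed. CRABP1 and CRABP2 bind retinoic acid in the cytoplasm, and CRABP2 can hand it to the nuclear receptors, which include RARB and RARG. CYP26A1 oxidises retinoic acid and so clears it. In the gastrulating mouse embryo, Aldh1a2 is known from posterior and paraxial mesoderm, and Cyp26a1 from regions kept free of retinoic acid, and embryos without Aldh1a2 fail to form a normal heart and somites.

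Depth lay between 101895 and 14159574 reads on genes per cell, with medians of 1088116 in wild type at E6.75, 940161 in the knockout and 1377888 at E7.25. The libraries fell into 2 sets that the labels do not name. Set 1 took in every knockout cell, 83 wild-type cells of the earlier stage and 50.7% of the E7.25 cells, and its median depth was 792889 reads. Set 2 took in the rest, with 89 cells of the earlier stage, and its median depth was 2079708 reads. Between the sets, 95 genes were read in more set 1 than set 2 cells by 70 percentage points or more at both stages. Of the 9 members, 0 were among them. Genes read in fewer set 1 than set 2 cells were not counted. Rdh10 went that way, read in 28.9% of set 1 and 58.4% of set 2 wild-type cells at E6.75. Its shares at E7.25 were 23.7% and 51.2%. Rarg was also read in a smaller share of set 1 cells at both stages, and Dhrs3 in a larger one. The knockout was therefore compared with set 1 wild-type cells, and the stages are given for both sets together and for each set. Y-linked reads of over 3 CPM were found in 53 wild-type cells at E6.75, 95 at E7.25 and 49 knockout cells. All of these were set 1 cells, and 0 set 2 cells passed that level. Set, depth, embryo and the share of cells with Y-linked reads cannot be told apart. Mesodermal markers were present in every group and markers of adult bone marrow, which the labels' protocol text speaks of, summed to between 1.07 and 5.67 CPM in every group and set.

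All 9 are protein-coding genes, located here on the mm10 assembly. Stra6 (ENSMUSG00000032327) lies at chr9:58063788-58153996, Rdh10 (ENSMUSG00000025921) at chr1:16105774-16133734, Dhrs3 (ENSMUSG00000066026) at chr4:144892827-144928209 and Aldh1a2 (ENSMUSG00000013584) at chr9:71215789-71296243. Crabp1 (ENSMUSG00000032291) lies at chr9:54764748-54773110, Crabp2 (ENSMUSG00000004885) at chr3:87948666-87953376 and Cyp26a1 (ENSMUSG00000024987) at chr19:37697798-37701536. These 7 are on the plus strand. Rarb (ENSMUSG00000017491), at chr14:16430839-16819156, and Rarg (ENSMUSG00000001288), at chr15:102234938-102257517, are on the minus strand. Reads were counted over exons, which span from 802 bases in Crabp1 to 5829 bases in Stra6.

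Levels between genes were compared as CPM per kilobase of exon. At E7.25 the order was Cyp26a1 at 343, Crabp1 at 231.5, Crabp2 at 21.3, Stra6 at 12.1, Aldh1a2 at 7.48, Rarg at 3.69, Rdh10 at 1.88, Dhrs3 at 0.973 and Rarb at 0.396 CPM per kilobase. The gene that clears retinoic acid was thus the most abundant of the 9, and Aldh1a2, which makes it, stood below both binding proteins and Stra6. Between the library sets, Cyp26a1 spanned 323.1 to 382 and Crabp1 187.8 to 253.5 CPM per kilobase, without overlap. Crabp2 was at 3.80 in set 1 and 30.1 in set 2, Stra6 at 4.80 and 15.9, and Aldh1a2 at 0.750 and 10.9 CPM per kilobase. Stra6 thus lay above Aldh1a2 within each set, while Crabp2 lay below Stra6 in set 1 and above it in set 2. Rarg, at 2.43 and 4.32, Rdh10, at 1.605 and 2.02, and Dhrs3, at 0.777 and 1.07, lay above Aldh1a2 in set 1 and below it in set 2. At E6.75 in wild type, Cyp26a1 was again first at 269.3 CPM per kilobase, Crabp1 was second at 29.6, and Stra6 was last at 0.0683.

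**Figure D1:**
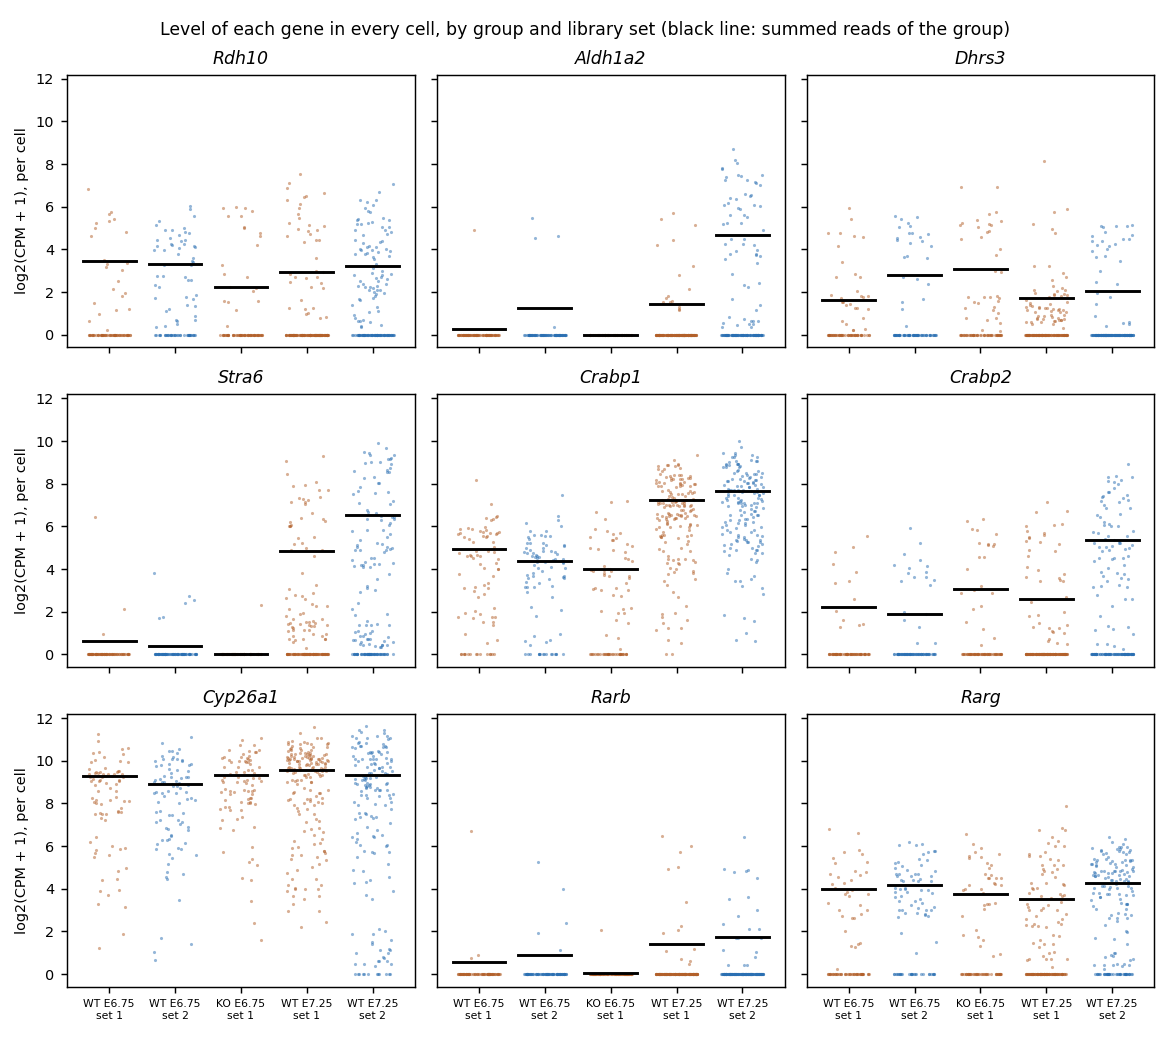
Each panel shows 1 gene, with a point per cell at log2(CPM + 1) on the vertical axis and the groups split by library set (brown, set 1; blue, set 2) on the horizontal axis; the black line is the level of the summed reads. Cyp26a1 was at 10 CPM or more in 95.3% of wild-type cells at E6.75, 96.5% of knockout cells and 88.9% of cells at E7.25. Aldh1a2 and Stra6 had few cells above 0 at E6.75. At E7.25, Stra6 was above 0 in 44.5% of set 1 and 66.1% of set 2 cells, and Aldh1a2 in 9.25% and 37.5%.

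The first comparison asked how the 9 genes differed between wild-type cells of E7.25 and E6.75. Higher at E7.25 by 2-fold or more were 4 of the 9: Stra6, Aldh1a2, Crabp1 and Crabp2. A difference was called at a log2 ratio of at least 1 between summed CPM with 1 CPM added, with at least 1 CPM in the higher group. Of all 14217 genes measured, 4.93% were higher and 2.09% lower by this rule, with 7.84% and 4.73% in set 1 alone and 6.12% and 2.6% in set 2 alone. No member was lower by 2-fold or more. The median log2 ratio over the 9 was 0.85, beside 0.03 over all genes measured.

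Stra6, the retinol receptor, had the widest gap. At E6.75 it was read in 9 cells (5.23%), from 0 to 86.1 CPM per cell with a median of 0, and 48.04% of its reads came from 1 cell. At E7.25 it ranged from 0 to 953 CPM with a median of 0.631, and 30.8% of cells were at 10 CPM or more. Most E6.75 cells were thus at 0, and the E7.25 cells were spread between 0 and high levels, so the groups overlapped at the low end. The summed level was 0.398 CPM at E6.75 and 70.8 CPM at E7.25, a log2 ratio of 5.68 (95% counting interval 5.60 to 5.76). It was 4.21 in set 1 and 6.17 in set 2.

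Of the enzymes that make or spare retinaldehyde and retinoic acid, Aldh1a2 was the 1 that was higher. Aldh1a2 was read in 5 cells (2.91%) at E6.75 and in 79 (23.2%) at E7.25, with medians of 0 in both groups and highest cells of 43.8 and 414 CPM. Its summed level was 0.952 CPM at E6.75 and 16.9 CPM at E7.25, a log2 ratio of 3.20 (3.11 to 3.29). The library sets differed in this. In set 1 the level went from 0.211 CPM, all from 1 cell, to 1.70 CPM, a log2 ratio of 1.16, and 5 cells (2.89%) were at 10 CPM or more at E7.25. In set 2 it went from 1.39 to 24.6 CPM, a log2 ratio of 3.42, and 44 cells (26.2%) were at 10 CPM or more. Aldh1a2 was thus present in a minority of cells in both sets, and in far fewer in set 1.

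Among the cell types whose summed markers were higher at E7.25 was paraxial and presomitic mesoderm. All 10 of the markers, of which Hoxb1 is 1, had reads in each group, and their summed level was 320.5 CPM in set 1 and 331.1 CPM in set 2 at E6.75, and 802 and 1334 CPM at E7.25. The 9 markers of anterior paraxial and cranial mesoderm summed to 23.8 and 13.1 CPM at E6.75, and to 89.5 and 273.3 CPM at E7.25. Definitive endoderm and axial markers summed to 46.1 and 54.6 CPM at E6.75, and to 222.1 and 248.9 CPM at E7.25. Cardiac progenitor markers summed to 223.8 and 199.4 CPM at E6.75, and to 482.9 and 457.7 CPM at E7.25. Primitive streak markers went the other way, from 2216 and 3425 CPM at E6.75 to 756 and 1195 CPM at E7.25. Epiblast markers did so too, from 1292 and 1939 CPM to 949 and 1270 CPM. Their part in the differences of the members was not tested, and more cells of a type and more RNA per cell cannot be told apart in a summed level.

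Rdh10, the retinol dehydrogenase, stayed within 2-fold. It was at 9.19 CPM at E6.75 and 7.83 CPM at E7.25, a log2 ratio of -0.21, with -0.50 in set 1 and -0.06 in set 2. Its share of cells at 10 CPM or more was 21.5% and 19.4%. Dhrs3, which works in the opposite direction, was at 4.57 and 2.85 CPM, a log2 ratio of -0.53, with -0.76 in set 2 and 0.06 in set 1. Both were thus read at E6.75, when Stra6 was under 1 CPM in each set. Aldh1a2 was then at 0.211 CPM in set 1 and 1.39 CPM in set 2.

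Both cytoplasmic binding proteins were higher at E7.25. Crabp1 was read in 81.98% of cells at E6.75, from 0 to 284.9 CPM with a median of 15.9, and in 99.4% at E7.25, from 0 to 1009 CPM with a median of 124.6. The bulk of the cells shifted, although the ranges overlapped. The summed level was 23.7 and 185.6 CPM, a log2 ratio of 2.91 (2.88 to 2.95), with 2.29 in set 1 and 3.27 in set 2. Crabp2 behaved otherwise, with medians of 0 at both stages and highest cells of 59.4 and 491 CPM. Its summed level was 3.11 and 28.1 CPM, a log2 ratio of 2.82 (2.75 to 2.90). In set 2 it went from 2.74 to 39.7 CPM (log2 ratio 3.45), and in set 1 from 3.74 to 5.02 CPM (log2 ratio 0.35), which is under 2-fold. The higher Crabp2 level therefore rested on set 2.

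Cyp26a1, the retinoic acid hydroxylase, was high at both stages. In wild-type cells it ranged from 0.567 to 2465 CPM with a median of 369 at E6.75, and from 0 to 3137 CPM with a median of 515 at E7.25. The summed level was 534 and 680 CPM, a log2 ratio of 0.35, with 0.30 in set 1 and 0.40 in set 2. At E6.75, 95.3% of cells were at 10 CPM or more. At E7.25, 97.1% of set 1 cells (exact 95% interval 93.4% to 99.1%) and 80.4% of set 2 cells (73.5% to 86.1%) were, and 12 set 2 cells had 0 reads of it. All E6.75 cells had at least 1 read. At E6.75, 85 of 89 set 2 cells (95.5%) had been at 10 CPM or more. These intervals cover counting error over cells only, and the difference between stages has no test.

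Cyp26a1 and Rarb are known to respond to retinoic acid through a direct repeat that the receptors bind near their start. Start-site sequences were in the RefSeq table (GRCm38.p6, the assembly of mm10) for 7 of the 9 members, with 13 entries of 300 bases, 250 before the start and 50 from it on. They were searched on both strands for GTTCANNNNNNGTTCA, a direct repeat of GTTCA in which N is any base. Of the 13 entries, 1 of Rarb and 1 of Cyp26a1 held it, and of all 32851 entries 25 did (0.0761%). Shown for that reason are these 2, 5′ to 3′ on the strand of the gene, with the match in capitals.
Rarb (chr14:16575427-16575726, minus strand): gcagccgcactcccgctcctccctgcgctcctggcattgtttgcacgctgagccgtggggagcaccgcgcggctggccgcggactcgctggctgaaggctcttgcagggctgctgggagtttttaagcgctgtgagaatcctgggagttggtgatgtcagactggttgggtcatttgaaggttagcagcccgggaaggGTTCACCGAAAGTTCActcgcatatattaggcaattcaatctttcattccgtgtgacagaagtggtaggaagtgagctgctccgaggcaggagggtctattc
Cyp26a1 (chr19:37697558-37697857, plus strand): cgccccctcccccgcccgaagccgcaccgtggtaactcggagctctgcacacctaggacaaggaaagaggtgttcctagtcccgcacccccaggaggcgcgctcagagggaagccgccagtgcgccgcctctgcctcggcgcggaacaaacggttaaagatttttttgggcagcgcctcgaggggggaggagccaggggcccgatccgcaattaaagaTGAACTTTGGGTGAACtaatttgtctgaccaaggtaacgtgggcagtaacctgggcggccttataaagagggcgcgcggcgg
In Rarb the match lay 52 to 37 bases before the start, on the strand of the gene. In Cyp26a1 it lay 32 to 17 bases before the start, on the opposite strand, where it reads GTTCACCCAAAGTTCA. The related forms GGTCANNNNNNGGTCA, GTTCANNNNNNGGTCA and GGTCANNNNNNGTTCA were in 33, 14 and 9 of all entries and in 0 of the 13, and no stretch can match more than 1 of the 4 forms in the same place and strand. Such a repeat was already known from Rarb and Cyp26a1, so finding it in these 2 genes is no independent result. A match of letters is a description of the sequence, and binding was not measured here. The levels of these genes at E7.25 differed widely, at 343 CPM per kilobase for Cyp26a1 and 0.396 for Rarb.

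Neither of the 2 receptors passed 2-fold on CPM + 1. Rarb was read in 8 cells (4.65%) at E6.75 and 36 (10.6%) at E7.25, at 0.707 and 2.08 CPM, a log2 ratio of 0.85 (0.75 to 0.96). Without the added 1 CPM these levels differed by 2.95-fold, and the log2 ratio was past 2-fold with 0.1 CPM added (1.44) and in cells of at least 500000 reads and 4000 genes (1.01). Leaving out any of 3 single cells brought it past 2-fold, up to 1.09. Its exons share 1793 bases (34.1%) with Top2b on the other strand. The strand setting of the counting is not given in the sources used here, so reads of the 2 genes cannot be told apart there. Top2b was at 96.6 CPM at E6.75, 109.6 CPM at E7.25 and 46.5 CPM in the knockout, where Rarb had 5 reads. The part of Top2b reads in the Rarb level was not tested. Rarg was at 16.2 and 15.7 CPM, a log2 ratio of -0.04, with -0.49 in set 1 and 0.11 in set 2. It was at 10 CPM or more in 37.2% of cells at both stages. At E7.25 that share was 21.4% in set 1 and 53.6% in set 2.

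**Figure D2:**
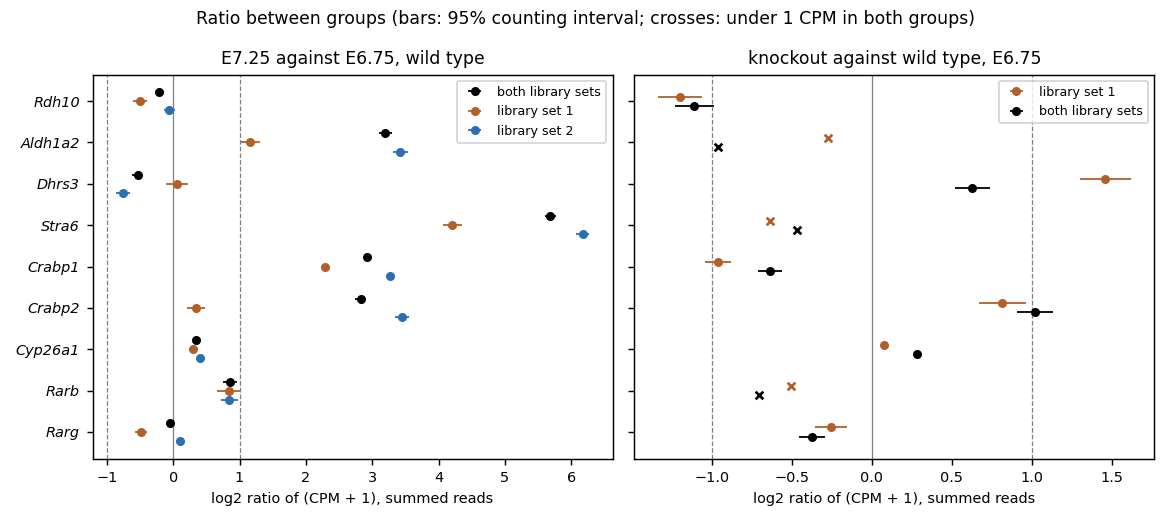
Log2 ratios of summed CPM + 1 for each gene, between the stages of wild-type cells (left) and knockout against wild type at E6.75 (right), with 95% counting intervals; dashed lines mark 2-fold, and crosses mark genes under 1 CPM in both groups. Stra6, Aldh1a2 and Crabp1 lay past 2-fold to the right in both library sets, and Crabp2 in set 2 but not in set 1.

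Other genes of the pathway were taken from 3 lists. Of 27 other enzymes and carriers, 15 were measured and 0 were higher or lower by 2-fold or more over both sets, with a median log2 ratio of 0.11. Cyp26c1 and Cyp26b1, which also hydroxylate retinoic acid, were at 5.20 and 7.50 CPM and at 0.593 and 0.471 CPM. In set 1, Rbp4, the blood carrier of retinol, went from 2.71 to 6.99 CPM and passed 2-fold, as did Bco1, a carotene-cleaving enzyme at 0 reads and 2.60 CPM, which is named after its value was seen. Of 11 other receptors and coregulators 0 passed, with a median of 0.00. Rara was at 14.7 and 15.1 CPM, Rxrb at 41.9 and 45.8 CPM and Rxra at 19.3 and 21.03 CPM. Rxra was read in 100% of set 1 cells but in 69.05% of set 2 cells at E7.25.

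Of 18 genes reported to respond to retinoic acid, 8 were measured and 5 were higher at E7.25, with 0 lower and a median log2 ratio of 1.75. Hoxb1, a hindbrain patterning gene, went from 15.2 to 114.3 CPM (log2 ratio 2.83, with 1.83 in set 1 and 2.97 in set 2). Meis1, a Hox cofactor, went from 4.08 to 17.4 CPM (1.85, with 0.90 and 2.19), and its share of cells with a read was 96.5% in set 1 and 63.1% in set 2 at E7.25. Hoxa2 and Hoxb2, also higher, were under 5 CPM and are named after their values were seen. In set 1, 3 of the 8 measured were higher, and in set 2 the same count as over both sets, 5, was.

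Within E7.25 the members differed widely between cells. The cells of that stage were clustered without any gene of these lists, and 9 clusters were described with no test, since a cluster against the rest is none. A cluster took the name of a marker list with at least 3 markers 2-fold higher than in the other cells. That list also had to hold more of the cluster's 10 leading genes than any other list. Cluster 9 (39 cells) was called paraxial and presomitic mesoderm-like from 7 of 10 markers, among them Tbx6, Msgn1 and Hes7. Dll3, Ripply2 and Mesp2 were not 2-fold higher there, and Ripply2 and Mesp2 were so in cluster 2. Cluster 9 was led by Wnt3a, Nkx1-2 and Foxb1. Wnt3a is on the primitive streak list, and Cited1, also leading, on the anterior paraxial and cranial list. Of the 7 markers, Hoxb1 is also in the list of responsive genes. Cluster 8 (35 cells) was called anterior paraxial and cranial mesoderm-like from 7 of 9 markers, among them Foxc2, Tcf15 and Twist1. Foxc1 and Cited1 were not 2-fold higher there. Cluster 3 (44 cells) was haemato-endothelial-like and cluster 7 (41 cells) definitive endoderm and axial-like. The other 5 stayed unnamed, among them cluster 4 (38 cells), led by Kif26a, Zfp365 and Chrnb4 and with Lhx1 and Gsc among its 10 leading genes.

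Aldh1a2 was concentrated in cluster 9. Its summed level there was 79.8 CPM (77.9 to 81.8), with a read in 31 of 39 cells and a range of 0 to 414 CPM around a median of 35.5. The next cluster, the definitive endoderm and axial-like one, was at 16.5 CPM, of which 59.5% came from 1 cell. In cluster 4 it had 0 reads in 38 cells, where 3 reads would be 0.0412 CPM. Cluster 9 was mostly from set 2, with 34 of its 39 cells, and the 5 set 1 cells had 0 reads of Aldh1a2, so the concentration was seen in set 2 and could not be shown in set 1. With set 2 cells clustered alone, the cluster highest in Aldh1a2, again led by Wnt3a, was at 92.2 CPM but met the rule for no cell type name, and the next cluster was at 41.8 CPM. Rdh10 was also highest in cluster 9, at 16.4 CPM, followed by 11.8 CPM in cluster 2, led by Ripply2.

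Cyp26a1 had a different order. It was highest in cluster 4, at 1401 CPM (1392 to 1409), and at 1008 CPM in cluster 2. It was lowest in the haemato-endothelial-like cluster, at 198.1 CPM with a median of 48.5 per cell, and next lowest in cluster 9, at 258.5 CPM with a median of 84.1. Both library sets had cluster 4 first, at 1393 CPM in set 1 and 1403 CPM in set 2. The low end differed: set 1 had its lowest level in cluster 5, at 88.9 CPM, and set 2 in cluster 3, at 91.7 CPM. In cluster 9 the 5 set 1 cells were at 750 CPM and the 34 set 2 cells at 236.6 CPM.

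Over both sets, the receptor for retinol and the 2 binding proteins were highest in cluster 8, the anterior paraxial and cranial mesoderm-like cells. Stra6 was at 284.98 CPM (281.07 to 288.92) there, with a median of 273.05 per cell and reads in 30 of 35 cells. Crabp1 was at 425 CPM and Crabp2 at 127.8 CPM, while Aldh1a2 was at 6.11 CPM. For the binding proteins this order came from set 2, where cluster 8 was at 510 CPM of Crabp1 and 162.8 CPM of Crabp2. In set 1, Crabp1 was at 143.9 CPM in cluster 8 and 230.8 CPM in cluster 2, and Crabp2 at 11.2 CPM in cluster 8 and 23.6 CPM in cluster 5. Stra6 was first in cluster 8 in set 1 as well, at 146.8 CPM. In set 2 alone, 5 cells of cluster 6 had a higher Stra6 level, 428 CPM, than the 326.5 CPM of cluster 8. Crabp1 was lowest in the definitive endoderm and axial-like cluster, at 26.4 CPM, and was lowest there in each set too. Stra6 was lowest over both sets in the haemato-endothelial-like cluster, at 0.480 CPM. The cluster highest in Stra6 was thus not the one highest in Aldh1a2, which had Stra6 at 46.1 CPM.

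**Figure D3:**
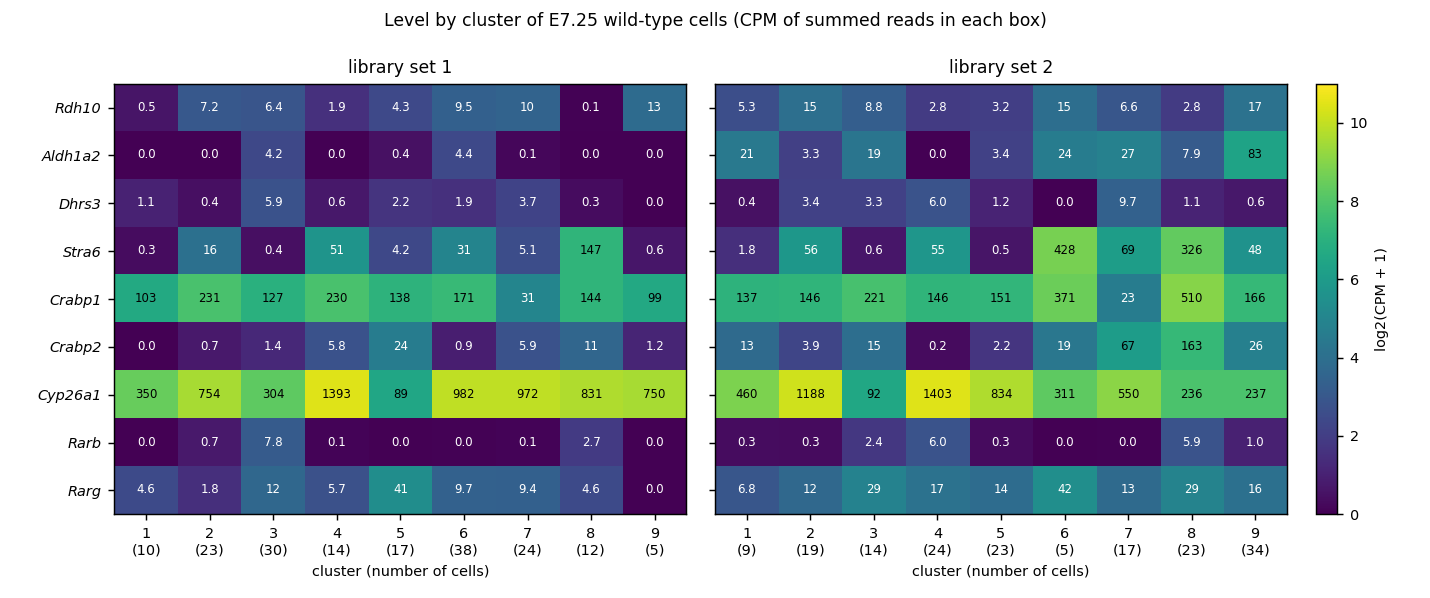
Level of each gene in the 9 clusters of E7.25 wild-type cells, for library set 1 (left) and set 2 (right); the number in each box is CPM of summed reads, colour is log2(CPM + 1), and the number of cells is in brackets under each cluster. Aldh1a2 was highest in cluster 9 in set 2 and at 0 in the 5 cells of that cluster in set 1, while Cyp26a1 was highest in cluster 4 in both sets.

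Cell by cell, Aldh1a2 and Cyp26a1 were inversely related in set 2. In the 63 set 2 cells with an Aldh1a2 read at E7.25, Cyp26a1 ranged from 0 to 2146 CPM with a median of 49.7, and 26 (41.3%) were under 10 CPM. In the other set 2 cells, with no such read, Cyp26a1 ranged from 0 to 3137 CPM with a median of 681, and 7 (6.67%) were under 10 CPM. The median depth of these groups was 2333944 and 2144018 reads. The Spearman correlation over all set 2 cells was -0.58. In set 1 it was -0.08, and the 16 cells with an Aldh1a2 read had a Cyp26a1 median of 643 CPM against 730 CPM in the others. The 5 set 1 cells with Aldh1a2 at 10 CPM or more had a higher Cyp26a1 median, 989 CPM. In the 44 such cells of set 2 that median was 21.1 CPM. All these cells come from an unknown number of embryos, and correlations of cells are given as a description only.

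**Figure D4:**
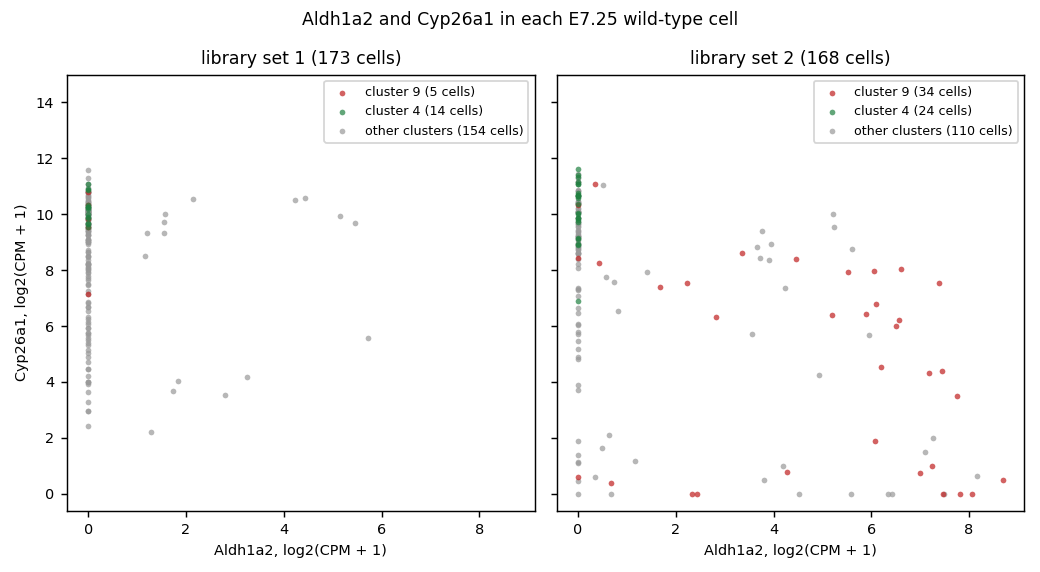
Each point is 1 E7.25 wild-type cell, with Aldh1a2 on the horizontal and Cyp26a1 on the vertical axis, both as log2(CPM + 1); red marks cluster 9, green cluster 4 and grey all others. In set 2 the cells high in Aldh1a2 reach down to 0 for Cyp26a1, and in set 1 few cells have Aldh1a2 at all.

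Among all pairs of members, Aldh1a2 and Cyp26a1 had the correlation largest in size in set 2 but not in set 1. In set 2 the Spearman correlation was 0.47 for Aldh1a2 and Crabp2, 0.46 for Stra6 and Crabp2, -0.49 for Crabp2 and Cyp26a1, 0.28 for Crabp1 and Crabp2, and 0.27 for Rdh10 and Aldh1a2. In set 1 those of the same pairs, in the same order, were 0.15, 0.24, -0.07, -0.13 and -0.03, so the last 2 had the opposite sign. Correlation of any member with depth in either set lay between -0.05 and 0.12.

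Genes most like a member were taken over 9088 genes as the mean of the Spearman correlations in the 2 sets, for the 6 members read in at least 20% of E7.25 cells in both. For Cyp26a1 they were Lhx1 (0.68), a transcription factor of the organizer and early mesoderm, Tdgf1 (0.58), a Nodal co-receptor, Spry4 (0.58), an inhibitor of FGF signalling, Cyp26c1 (0.56), and Otx2 (0.55), an anterior patterning gene. By cluster, Hoxb1 was at 5.07 CPM in cluster 4 against 562 CPM in cluster 9. For Stra6 the most like were Trp53i11 (0.46), Ripply2 (0.45), Sfrp1 (0.43), Cd24a (0.42) and Tcf7l2 (0.41). For Crabp1 they were Dusp9 (0.48), Myl7 (0.48), Ifitm1 (0.47), Foxc2 (0.47) and Epb41l3 (0.39). For Crabp2 they were Gadd45g (0.39), Lhfpl2 (0.38), Mdk (0.36), Rps19 (0.36) and Stra6 (0.35), with set 1 values as low as 0.05. No gene reached 0.30 with Rdh10 or Rarg.

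The second comparison asked how the 9 genes differed in E6.75 cells labelled knockout, and it used the 83 wild-type and 85 knockout cells of set 1. It shares these wild-type cells with the stage comparison, so the 2 are not independent. Of the 9, 6 were measured, with 1 lower (Rdh10) and 1 higher (Dhrs3) by 2-fold or more. Of all 13934 genes measured, 7.64% were lower and 4.8% higher. The 1 of 6 in each direction is a count too small to set against that background. Against the wild-type cells of both sets, where 9.13% of 14014 genes were lower and 2.74% higher, the 1 lower was Rdh10 and the 1 higher was Crabp2. The median log2 ratio of the 6 was -0.09, beside -0.03 over all genes. Paraxial and presomitic mesoderm markers summed to 102.2 CPM in the knockout and 320.5 CPM in wild type, and primitive streak markers to 3183 and 2216 CPM. Their part in the values below was not tested.

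Cyp26a1 differed least in the summed level among the members measured, but not with each cell weighted equally (log2 ratio 0.32, against 0.03 for Rdh10) or with thinned cells (0.37, against -0.01 for Rdh10). In wild type it ranged from 1.32 to 2465 CPM with a median of 425, and in the knockout from 2.03 to 2131 CPM with a median of 509. All cells of both groups had at least 1 read, and 95.2% and 96.5% were at 10 CPM or more. The ranges overlapped nearly in full, and the summed levels of 616 and 650 CPM gave a log2 ratio of 0.08.

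Dhrs3, which returns retinaldehyde to retinol, was higher in the knockout. It ranged from 0 to 60.5 CPM in wild type and from 0 to 122.4 CPM in the knockout, with medians of 0, and 7 of 83 and 17 of 85 cells were at 10 CPM or more. The summed level was 2.13 and 7.61 CPM, a log2 ratio of 1.46 (1.30 to 1.62). It kept its call when any single cell was left out, at 1.27 to 1.65. Against the wild-type cells of both sets, where Dhrs3 was at 4.57 CPM, the log2 ratio was 0.63, under 2-fold. It was 1.03 among cells with Y-linked reads and 2.38 among cells without.

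Rdh10, which works in the other direction, was lower only in the summed level. It was at 9.85 CPM in wild type and 3.72 CPM in the knockout, a log2 ratio of -1.20 (-1.34 to -1.06), and 35.4% of the wild-type reads came from 1 cell. Without that cell the log2 ratio was -0.73. Cells at 10 CPM or more were 10 of 83 (12.0%) in wild type and 11 of 85 (12.9%) in the knockout. With each cell weighted equally the log2 ratio was 0.03, with cells thinned to 100000 reads it was -0.01, and without the deepest 10% of cells it was 0.77. It was -1.57 among cells with Y-linked reads and -0.20 among cells without.

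Crabp1 was read in 68 of 83 wild-type cells, with a median of 15.4 CPM, and in 51 of 85 knockout cells, with a median of 3.42 CPM. The summed level was 29.96 and 14.9 CPM, a log2 ratio of -0.96. The levels themselves differed by 2.01-fold, and the 1 CPM added to each puts the ratio short of the call. In the knockout 40.4% of the reads came from 1 cell, without which it was -1.57, and leaving out any of 5 cells brought it past 2-fold. Among cells with Y-linked reads it was -0.33 and among cells without -1.93. Crabp2 was read in 13 of 83 and 23 of 85 cells, at 3.74 and 7.32 CPM, a log2 ratio of 0.81. In wild type 51.1% of its reads came from 1 cell, without which it was 1.49, past 2-fold. It also passed with each cell weighted equally (1.39), with thinned cells (1.67), without the deepest 10% of cells (1.63) and against both sets (1.02).

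Rarg was at 14.9 and 12.3 CPM, a log2 ratio of -0.26, which became 0.61 without 1 wild-type cell that gave 51.8% of the reads. It was also positive with each cell weighted equally (0.08), with thinned cells (0.44) and without the deepest 10% of cells (0.36). Among cells with Y-linked reads it was -0.70 and among cells without 0.87. The other three members were under 1 CPM in both groups. Aldh1a2 had 0 reads in the 85 knockout cells, where 3 reads would be 0.0263 CPM, and 20 reads in 1 of 83 wild-type cells. Its exact upper limits in the knockout were 0.0324 CPM and 4.25% of cells, for counting error only. Stra6 had 1 read in the knockout and 54 in wild type, 90.7% of them in 1 cell. Rarb had 5 reads, in 1 knockout cell, and 46 in wild type, 95.7% of them in 1 cell. The log2 ratios of these 3 were -0.28, -0.64 and -0.51, each under 2-fold with 1 CPM added. With thinned cells those of Stra6 and Rarb were -1.14 and -1.27, and with each cell weighted equally that of Rarb was -1.12, all past 2-fold.

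Of the other enzymes and carriers, 14 were measured in this comparison, with 0 lower and 1 higher. That 1, Stra6l, a relative of Stra6, was at 0.845 and 3.50 CPM, and 46.7% of its knockout reads came from 1 cell; it is under 5 CPM and is named after its value was seen. Of 10 other receptors and coregulators measured, and of 5 responsive genes measured, 0 passed 2-fold. Rara was at 7.94 and 9.02 CPM, Rxra at 26.6 and 17.6 CPM, Rxrb at 45.5 and 41.3 CPM and Cyp26c1 at 4.50 and 5.55 CPM. Cyp26b1 was under 1 CPM in both groups. Hoxb1, at 9.19 and 4.17 CPM, had a log2 ratio of -0.98, and of -1.65 against both sets, where it was past 2-fold.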

How the data were processed

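Reads had been aligned with GSNAP to mm10 and counted per gene with HTSeq 0.5.3p3, per the submitters' processing notes. The deposited counts are whole numbers of reads per gene and cell, with no normalization. The labels' protocols speak of adult bone marrow cells where the sample labels name embryos, and they name no molecular identifiers. Reads were therefore not taken as independent molecules, and intervals and floors cover counting error only.

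Symbols came from GENCODE M21 for 40254 of 40912 identifiers. No cell was removed by minimums of 100000 reads and 2000 genes, no doublet caller was run, and no 2 cells had identical counts. Counts were summed per group, since the labels name no embryo, and divided by the summed reads on genes (CPM). With 1 sample per group no test was planned or run, and edgeR 4.0.16 and DESeq2 1.42.0 gave scaling factors for alternatives only. Genes reaching 1 CPM in a group counted as measured, and 2-fold on CPM + 1 was the call. Intervals of CPM levels (Poisson) and of shares of cells (Clopper-Pearson) are exact at 95%. Those of log2 ratios are approximate at 95%, from a normal approximation to the counting error of the reads. Per comparison, list genes called and at 5 CPM or more in the higher group are named, up to 4 per list and direction, with Rara, Rxra, Rxrb, Cyp26b1 and Cyp26c1 always.

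Library sets were assigned from 8 genes, Foxe1, Dusp15, Kcnk12, Pou3f3, Six3, Vax1, Sox3 and Hoxd13. Cells with any 5 or more of them read went to set 1. Every set 1 cell had all 8 and no set 2 cell had over 4. The labels name no such sets. The wild-type cells of each stage were clustered (scanpy 1.11.5, Leiden, resolution 1, 1000 variable genes, 15 components, 15 neighbours, log2(CPM + 10) centred within sets) without the listed retinoic acid genes. These settings were chosen after a first clustering and the members' levels in it had been seen. The members and lists were chosen with earlier results of these data known, and some list genes are counted but not reported by name here. Python 3.11.15 and R 4.3.3 were used.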

Additional observations from a re-analysis of the deposited data

How the results depend on the processing

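Between stages, the count of members higher by 2-fold or more stayed between 3 and 5 and that of members lower at 0 under every alternative run. Leaving out single cells gave 4 to 5. Of the single-gene values, leaving out the 5 CPM filter, which cannot move them, 32 stayed within their counting interval, 76 moved beyond it and 0 called values reversed. In the knockout comparison 37 stayed within it, 78 moved and 2 called values, both of Rdh10, reversed. A change of sign in a gene not called, as in Rarg, was counted as moved. The count lower, 1 (Rdh10), was 0 with 10 CPM added, and 2 with 0.1 CPM added (Rdh10 and Crabp1), with thinned cells (Stra6 and Rarb) and in cells without Y-linked reads (Stra6 and Crabp1). It was 1 with a mean per cell (Rarb) and without the deepest 10% of cells (Crabp1), a different gene each time. The count higher, 1 (Dhrs3), was 0 with 10 CPM added, and 2 (Dhrs3 and Crabp2) with a mean per cell, with thinned cells and without the deepest 10% of cells. Leaving out single cells gave 1 to 2 lower and 1 to 2 higher. The log2 ratio of Rdh10 reversed to 0.030 with a mean per cell and to 0.77 without the deepest 10% of cells, and the cause was not tested. In 4 other clusterings Aldh1a2 stayed highest in a cluster led by Wnt3a, at 52.6 to 92.2 CPM, though with set 2 alone that cluster was unnamed and the next was at 41.8 CPM, against 16.5 CPM in the reported clustering. Cyp26a1 was highest at 1219 to 1470 CPM, in a cluster with Kif26a and Lhx1 among its leading genes in 2 of the 4, with Ripply2, Epha7 and Lhx1 at resolution 0.5, and with Parp3 and Epha7 with 30 neighbours. Leaving out single cells, the split by Y-linked reads and clustering of set 2 alone were chosen after seeing the data. No paired analysis was possible because no test was run, and the cell numbers in the labels do not tie cells of different groups together. At E6.75 few cells gave the reads of Aldh1a2, Stra6 and Rarb, and the part of depth in this was not tested.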
